A study of Homo sapiens and Mus musculus with 19 samples.

Results

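The interferon-stimulated genes described here are a set of 39 genes that cells switch on when interferon reaches them, grouped as regulators, IFIT proteins, the ISG15 system, nucleic acid enzymes, antiviral GTPases, the IFI group, RNA sensors and other effectors. A gene was followed through the brightest of its probe sets annotated to that symbol alone. On the human arrays 38 of the 39 were measured in this way, out of 19775 genes, and all 38 were among the 15185 genes kept by the filter on dim genes. STAT2 had no such human probe set. Among mouse genes, 34 members had a listed counterpart, 32 of these were measured, and 20 were among the 12555 of 18194 mouse genes kept.

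Type I interferon binds a receptor on the cell surface, and the kinases JAK1 and TYK2 then activate a transcription factor complex of STAT proteins and IRF9, called ISGF3, which binds the interferon-stimulated response element (ISRE) in the promoters of these genes. Interferon gamma acts through a STAT dimer at a different element, the gamma-activated sequence (GAS), and IRF1 and the guanylate-binding proteins are typical genes of that branch. NF-kB, a transcription factor held in the cytoplasm by IkB proteins and released when the IKK complex marks IkB for destruction, acts with interferon regulatory factors on the interferon beta gene and also binds the promoters of some interferon-stimulated genes directly.

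The study asked how gene expression in lung cancer cell lines changes when NF-kB is blocked or activated. Each of 5 human lung cancer lines (HCC827, H358, PC9, A549 and H23) was transduced with a retrovirus that carried the marker GFP alone (MiG, the control), GFP with a super-repressor mutant of IkB alpha that blocks NF-kB (IkB_SR), or GFP with an activated IKK beta, with a pair of serines changed to glutamate (IKKb). A mouse lung carcinoma line, labelled LLC-kB OVA and called LLC here, received MiG or IKKb only. All cells, controls included, were therefore infected with a retrovirus and sorted on GFP. Every human line had 1 array per vector, so that a difference within 1 line has no replicate check and the 5 lines are the replicates of a vector. LLC had 2 arrays per vector, and the labels do not say whether these were separate cultures, so a p-value for LLC measures only the spread between those arrays.

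Values are array signals on a linear scale. Fold changes and log2 differences refer to the signal plus 16, which keeps very dim probe sets from giving large ratios and understates the change of dim genes. A signal is called dim where it lies below the 40th percentile of its array. Tests were limma fits across all genes kept, with p-values adjusted by the Benjamini-Hochberg method and a threshold of 0.05. Signals of different genes come from different probes, so their order between genes is not read as a result.

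The median signal was 51.3 to 76.5 on the human arrays and 55.0 to 64.4 on the LLC arrays. The H358 IKKb array stood apart from the other H358 arrays: its dap spike-in signal was 5908 against 1662 with MiG and 1598 with IkB_SR, and its actin 3'/5' ratio was 1.74 against 1.41 and 1.38. The vector comparisons and the line test for HCC827 were also run without it. The probe set for NFKBIA, the gene that encodes IkB alpha, was higher with IkB_SR than with MiG by a signal ratio of 7.08 in HCC827, 6.05 in PC9, 4.07 in H358 and 1.6 in A549, but in H23 the ratio was 0.782, so H23 is described by the array labelled IkB_SR. In that H23 array TNFAIP3, a standard NF-kB target, read 927 against 2840 with MiG. Of 10 epithelial and lung markers 7 were above the 40th percentile on every MiG array, and of 12 leukocyte markers 2 were (TCF4 and CSF1R), 7 were above it on some MiG arrays and 3 (PTPRC, CLEC4C and NKG7) on none. These are bulk RNA measurements, in which fewer cells with a gene on and less RNA per cell cannot be told apart.

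Promoter sequence is shown for 6 members on which the results below turn. IFI44L and IFIT1 stand for the genes with the large difference in HCC827, IRF1 and GBP1 passed the test across the lines, and IFIH1 and OAS3 had low p-values in the lines with low interferon-stimulated gene signal. Each sequence is the 250 bases before the RefSeq start of the gene, read 5′ to 3′ on the gene's strand from GRCh38.p14, at chr1:78620198-78620447 (plus strand), chr10:89392373-89392622 (plus), chr5:132490774-132491023 (minus), chr1:89065209-89065458 (minus), chr2:162318685-162318934 (minus) and chr12:112938224-112938473 (plus). Capitals mark matches to the ISRE core GAAANNGAAA, to the GAS core TTCNNNGAA or to the NF-kB (kB) consensus, searched on both strands.
IFI44L: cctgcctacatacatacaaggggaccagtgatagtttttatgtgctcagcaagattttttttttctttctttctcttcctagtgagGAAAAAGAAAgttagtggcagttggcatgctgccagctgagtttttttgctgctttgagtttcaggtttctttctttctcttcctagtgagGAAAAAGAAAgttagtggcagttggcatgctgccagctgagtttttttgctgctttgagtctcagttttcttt
IFIT1: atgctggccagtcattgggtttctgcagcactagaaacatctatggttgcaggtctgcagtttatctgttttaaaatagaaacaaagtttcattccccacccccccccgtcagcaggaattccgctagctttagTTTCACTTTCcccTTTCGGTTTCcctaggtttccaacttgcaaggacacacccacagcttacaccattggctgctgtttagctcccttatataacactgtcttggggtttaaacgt
IRF1: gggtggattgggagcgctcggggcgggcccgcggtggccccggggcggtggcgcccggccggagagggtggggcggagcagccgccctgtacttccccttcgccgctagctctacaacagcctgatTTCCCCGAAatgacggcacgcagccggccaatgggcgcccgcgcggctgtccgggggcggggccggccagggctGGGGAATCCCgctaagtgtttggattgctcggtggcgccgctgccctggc
GBP1: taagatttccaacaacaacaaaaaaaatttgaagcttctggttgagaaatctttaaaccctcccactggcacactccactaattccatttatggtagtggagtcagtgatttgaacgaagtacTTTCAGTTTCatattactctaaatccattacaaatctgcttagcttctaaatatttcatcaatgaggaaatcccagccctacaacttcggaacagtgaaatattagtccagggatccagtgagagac
IFIH1: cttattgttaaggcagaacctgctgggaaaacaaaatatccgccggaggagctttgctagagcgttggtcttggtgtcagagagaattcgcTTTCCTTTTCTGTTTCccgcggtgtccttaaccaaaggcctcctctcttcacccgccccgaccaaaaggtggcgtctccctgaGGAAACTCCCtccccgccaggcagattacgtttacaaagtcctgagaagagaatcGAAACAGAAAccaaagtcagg
OAS3: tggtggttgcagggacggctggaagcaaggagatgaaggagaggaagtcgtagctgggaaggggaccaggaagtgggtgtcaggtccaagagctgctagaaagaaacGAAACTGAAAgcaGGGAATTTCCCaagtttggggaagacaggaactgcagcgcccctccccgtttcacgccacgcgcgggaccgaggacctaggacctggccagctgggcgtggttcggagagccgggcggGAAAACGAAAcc
The ISRE core stood at -164 and -73 in IFI44L, at -116 and -103 in IFIT1, at -127 in GBP1, at -159, -153 and -21 in IFIH1, and at -143 and -12 in OAS3, counted from the base before the start as -1. The matches at -159 and -153 in IFIH1 overlap. IRF1 held no ISRE core in this window, and instead a GAS core at -124 and a kB match at -50. IFIH1 had a kB match at -76, and OAS3 had overlapping kB matches at -130 and -129, a few bases after its first ISRE core.

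A promoter window was found for 31 of the 39 members. The ISRE core was present in 21 of these 31 (67.7%), against 3.71% of 27305 genes with a window. The GAS core was present in 9 (29%), against 8.09%, and the kB consensus in 5 (16.1%; BST2, IFIH1, IRF1, OAS3 and XAF1), against 6.28%. The windows of CMPK2, DTX3L, HERC6, SAMD9L and STAT2 held none of the motifs. A match is a stretch of letters and not a measured binding site.

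The level of these genes in control cells depended on the line. With MiG, HCC827 had the highest signal of the 5 lines for 34 of 38 members, against 16.3% of all genes kept. H358 had the highest signal for the other 4, which were IRF1, HERC5, ISG20 and DDX60, against 20.7% of all genes. PC9 (16.4% of all genes), A549 (23.6%) and H23 (23.1%) had the highest signal for none. All 38 members were above the 40th percentile with MiG in HCC827 and in H358 (89.6% and 89.8% of all genes kept were), and 28 in A549 (88.2%), 24 in H23 (88.7%) and 27 in PC9 (88.8%). Because a gene was kept on 5 arrays above that percentile, the 6 arrays of HCC827 and H358 were enough to keep a member, and 4 members (IFI44L, RSAD2, XAF1 and BST2) were above it on no array of A549, H23 or PC9.

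IFI44L, a gene of little known function that serves as a sensitive marker of type I interferon, had MiG signals of 4898 in HCC827, 1514 in H358, 2.44 in A549, 1.07 in H23 and 2.64 in PC9. HCC827 and H358 were bright and the other lines were dim. BST2, or tetherin, which holds budding virus at the cell surface, showed the same division with 4013 in HCC827, 2150 in H358, 5.48 in A549, 12.8 in H23 and 9.52 in PC9. RSAD2, or viperin, an enzyme that makes a chain-terminating nucleotide, had 2392 in HCC827, 446 in H358, 11 in A549, 16.1 in H23 and 15.4 in PC9. In each of these genes the lines fell into the same high pair and low trio.

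The GTPase MX1, which blocks the replication of influenza and other viruses, separated HCC827 from H358 as well, with MiG signals of 10220 in HCC827, 158 in H358, 39.3 in A549, 17.7 in H23 and 63.3 in PC9. IFI27 had 8016 in HCC827, 2025 in H358, 5.74 in A549, 61.3 in H23 and 2.02 in PC9, and IFI6 had 9288 in HCC827, 1134 in H358, 89.1 in A549, 212 in H23 and 41.8 in PC9. ISG15, a ubiquitin-like protein that is attached to other proteins and is also secreted, was well above the 40th percentile in all lines, with 15010 in HCC827, 5892 in H358, 183 in A549, 1311 in H23 and 407 in PC9, and H23 was the highest of the 3 low lines. The IFIT proteins bind foreign RNA. IFIT1 had 12150 in HCC827, 1330 in H358, 171 in A549, 483 in H23 and 182 in PC9, and IFIT3 had 13820 in HCC827, 3942 in H358, 354 in A549, 92.2 in H23 and 222 in PC9. For both, HCC827 was the highest line and H358 the next.

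The regulators covered a narrower span. IRF9, the DNA-binding part of ISGF3, had MiG signals of 3084 in HCC827, 1263 in H358, 482 in A549, 402 in H23 and 200.4 in PC9. IRF7, which amplifies interferon production, had 1604 in HCC827, 355 in H358, 250.2 in A549, 202 in H23 and 164 in PC9. IRF1 had 843 in HCC827, 1333 in H358, 352 in A549, 411 in H23 and 382 in PC9, and here H358 was above HCC827. LGALS3BP, a secreted glycoprotein, was high in every line but H23, with 12860 in HCC827, 10310 in H358, 2701 in A549, 12.5 in H23 and 4386 in PC9. DTX3L, a ubiquitin ligase that works with PARP9, had 8693 in HCC827, 2744 in H358, 1430 in A549, 242 in H23 and 1250 in PC9.

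Over the 38 members, HCC827 MiG exceeded the mean of A549, H23 and PC9 MiG by a median of 4.51 on the log2 scale, or 22.9-fold, and the median over all genes kept was -0.06. For H358 the median was 2.51, or 5.69-fold, against 0.01 for all genes. Dim signals of the low lines give only a lower bound, and 6 members (IFI44, IFI44L, RSAD2, XAF1, BST2 and CMPK2) were dim with MiG in all 3 of those lines. With dim signals set to the 40th percentile of their array the median was 4.50 for HCC827 and 2.51 for H358. Over the 21 members above the percentile in all 3 low lines, the difference ran from 0.56 for the exonuclease ISG20 to 6.38 for IFI6 in HCC827, and from -0.10 for IFIT5 to 5.14 for DDX60 in H358. All 3 HCC827 arrays were above all 9 arrays of A549, H23 and PC9 for 31 of 38 members, against 11.3% of all genes. All 3 H358 arrays were above those 9 for 29 of 38, against 12.5%, and its MiG and IkB_SR arrays without the IKKb array for 34 of 38, against 16.4%. TRIM22, OAS3 and IFIT5 were among the exceptions in H358, with MiG signals of 70.1, 1163 and 618 there against 139, 1239 and 895 in A549. The summed signal of 12 leukocyte markers was 946 to 1372 on the HCC827 arrays and 1583 to 2590 on the arrays of the other 4 lines, and CLEC4C and NKG7 were dim on every array of every human line. TCF4 alone read 906 to 1881 on the MiG arrays, where the sum was 1266 to 2590, so the sum largely follows that gene. PTPRC was dim on every array of the other 4 lines and on the MiG and IkB_SR arrays of HCC827, but not on its IKKb array.

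**Figure D1:**
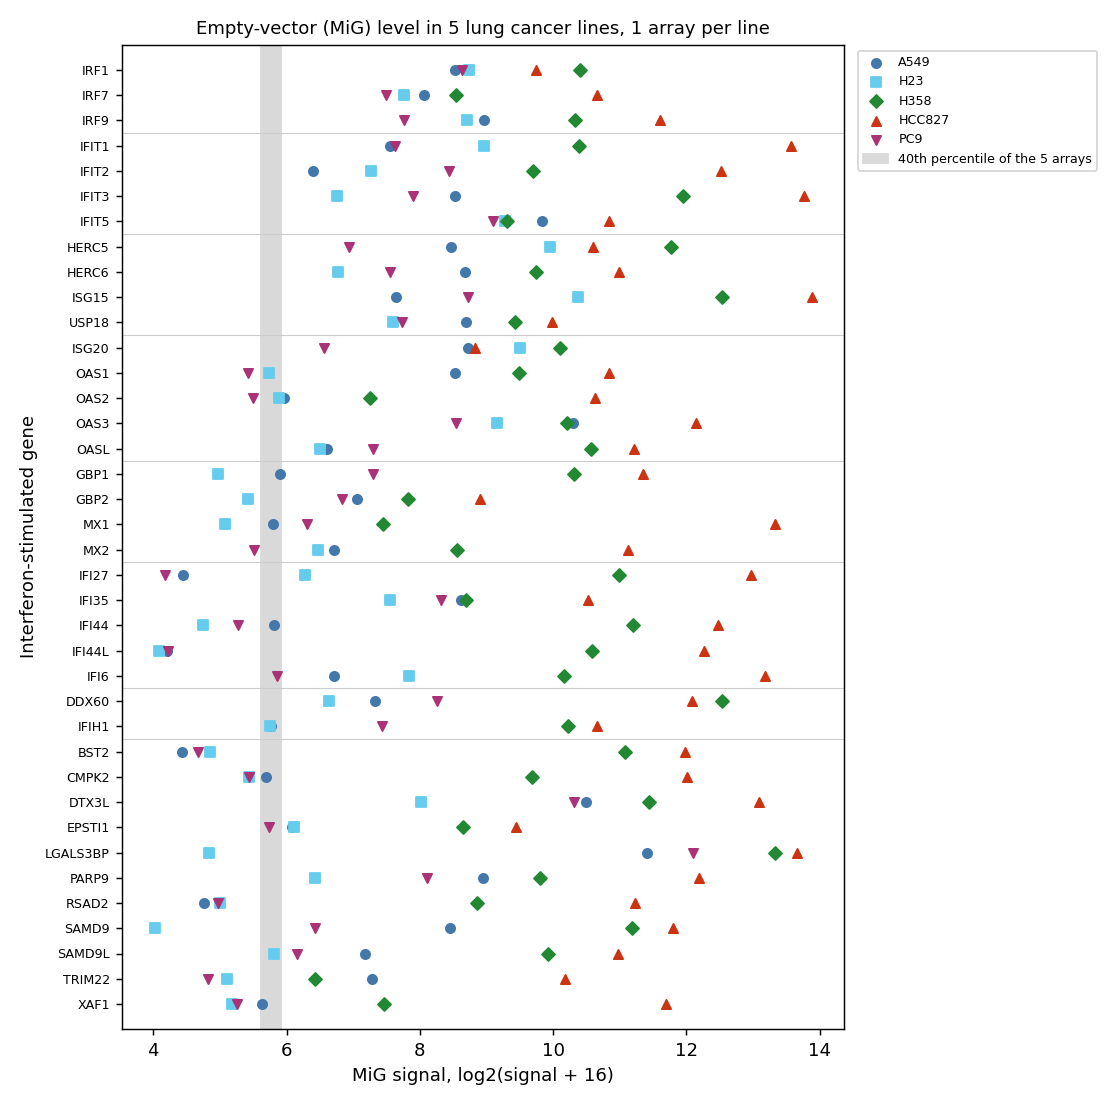
Signal of 38 interferon-stimulated genes with the control vector MiG, as log2 of the signal plus 16 on the x axis, 1 array and 1 symbol per line. The genes are grouped by role and the grey band spans the 40th percentile of the 5 arrays. HCC827 is the rightmost symbol for 34 genes and H358 for 4.

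Blocking NF-kB in HCC827 went with lower signals across the set. All 38 members were lower with IkB_SR than with MiG, and 35 were at least 2-fold lower, against 2.98% of all genes kept. The median difference was -2.21 on the log2 scale, or 4.63-fold, with a range from -5.39 for IFI27 to -0.21 for LGALS3BP, against a median of 0.02 for all genes. The median of -2.21 and its range describe 1 pair of arrays. With IKKb, HCC827 stayed near the MiG level: no member was 2-fold higher (2.86% of all genes) or 2-fold lower (3.22%), and the median difference was 0.30. The MiG and IKKb arrays of HCC827 are separate hybridisations, and the IkB_SR array was lower than both for every member.

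The 4 largest differences were in IFI27, IFI44L, XAF1 and IFI6. IFI44 and IFI35, also of the IFI group, differed by 5.14-fold and 4.26-fold. IFI27 read 8016 with MiG, 176 with IkB_SR and 13500 with IKKb in HCC827, a 41.9-fold difference between MiG and IkB_SR. IFI44L read 4898 with MiG, 106 with IkB_SR and 6524 with IKKb, 40.3-fold. XAF1, a partner of the apoptosis inhibitor XIAP, read 3288 with MiG, 82 with IkB_SR and 5363 with IKKb, 33.7-fold. IFI6, a mitochondrial protein that limits apoptosis, read 9288 with MiG, 372 with IkB_SR and 10740 with IKKb, 24.0-fold. For all of these genes the IkB_SR array alone was low.

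By the brightest probe sets MX1 and OAS2 came next, with smaller differences for MX2 and the other OAS genes. MX1 read 10220 with MiG, 430.5 with IkB_SR and 9288 with IKKb, 22.9-fold lower with IkB_SR, and MX2 read 2206 with MiG, 189.6 with IkB_SR and 2035 with IKKb, 10.8-fold. The OAS proteins make the oligoadenylate that switches on RNase L. OAS2 differed 19.9-fold, from 1565 with MiG, 63.5 with IkB_SR and 2490 with IKKb. OAS1 differed 14.2-fold, from 1808 with MiG, 112 with IkB_SR and 2426 with IKKb, and OAS3 differed 7.97-fold, from 4491 with MiG, 549.3 with IkB_SR and 6120 with IKKb. By the brightest probe sets the gradation among the OAS genes ran from OAS2 to OASL, which differed 4.24-fold. The order depended on the probe set. The other OAS2 probe sets differed by -2.77 and -2.06 on the log2 scale, against -3.61 for the other probe set of OAS1, -3.15 for that of OAS3 and -1.80 for that of OASL.

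The IFIT genes differed among themselves. IFIT1 read 12150 with MiG, 865 with IkB_SR and 13180 with IKKb, 13.8-fold lower with IkB_SR, and IFIT3 read 13820 with MiG, 2099 with IkB_SR and 14420 with IKKb, 6.54-fold lower. IFIT2 and IFIT5 differed by 2.45-fold and 2.25-fold. The ISG15 system lay between these values, with ISG15 at 15010 with MiG, 3927 with IkB_SR and 14140 with IKKb (3.81-fold), its protease USP18 at 4.51-fold and the ligase HERC5 at 3.77-fold. RSAD2 read 2392 with MiG, 166 with IkB_SR and 3510 with IKKb, 13.2-fold, and CMPK2, the mitochondrial nucleotide kinase next to it in the genome, read 4087 with MiG, 525 with IkB_SR and 5822 with IKKb, 7.59-fold.

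The DNA repair and antiviral partners PARP9 and DTX3L differed to unlike degrees by their brightest probe sets. PARP9, an ADP-ribosyltransferase, read 4672 with MiG, 896 with IkB_SR and 4609 with IKKb, 5.14-fold lower with IkB_SR, and DTX3L read 8693 with MiG, 4029 with IkB_SR and 9230 with IKKb, 2.15-fold lower. The other PARP9 probe set read 1274 with MiG and 508 with IkB_SR. Its log2 difference of -1.30 was close to the -1.11 of DTX3L, so the contrast between these genes depended on the probe set. HERC6 read 2018 with MiG, 436 with IkB_SR and 2587 with IKKb (4.50-fold), and SAMD9L, which restrains translation, read 1995 with MiG, 344 with IkB_SR and 2009 with IKKb (5.59-fold). In each of these genes the IkB_SR array was below both others.

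The smallest differences were in LGALS3BP, GBP2 and IRF1. IRF1 read 843 with MiG, 631 with IkB_SR and 1454 with IKKb, a 1.33-fold difference, and GBP2 read 461 with MiG, 361 with IkB_SR and 560 with IKKb, 1.27-fold. LGALS3BP read 12860 with MiG, 11150 with IkB_SR and 13150 with IKKb, 1.15-fold. These were the 3 members under 2-fold, and the next was DTX3L at 2.15-fold. IRF7 and IRF9 differed by more, at 4.51-fold and 4.01-fold, from 1604 with MiG, 343 with IkB_SR and 2155 with IKKb and from 3084 with MiG, 756 with IkB_SR and 2671 with IKKb.

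HCC827 did not reach the level of the low lines with IkB_SR. All 38 members remained above the 40th percentile on that array, and 31 of 38 were above the highest MiG signal of A549, H23 and PC9, against 21.9% of all genes. IFI44L, for example, read 106 there and no more than 2.64 with MiG in those lines. The members have 26 further probe sets in 20 genes. Of these, 24 were above the 40th percentile in HCC827 MiG, 24 were lower with IkB_SR and 21 were at least 2-fold lower. GBP1 has 4 probe sets, of which 3 were 3.15-fold or more lower with IkB_SR, and a dim one read 28.2 with MiG and 34.9 with IkB_SR.

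**Figure D2:**
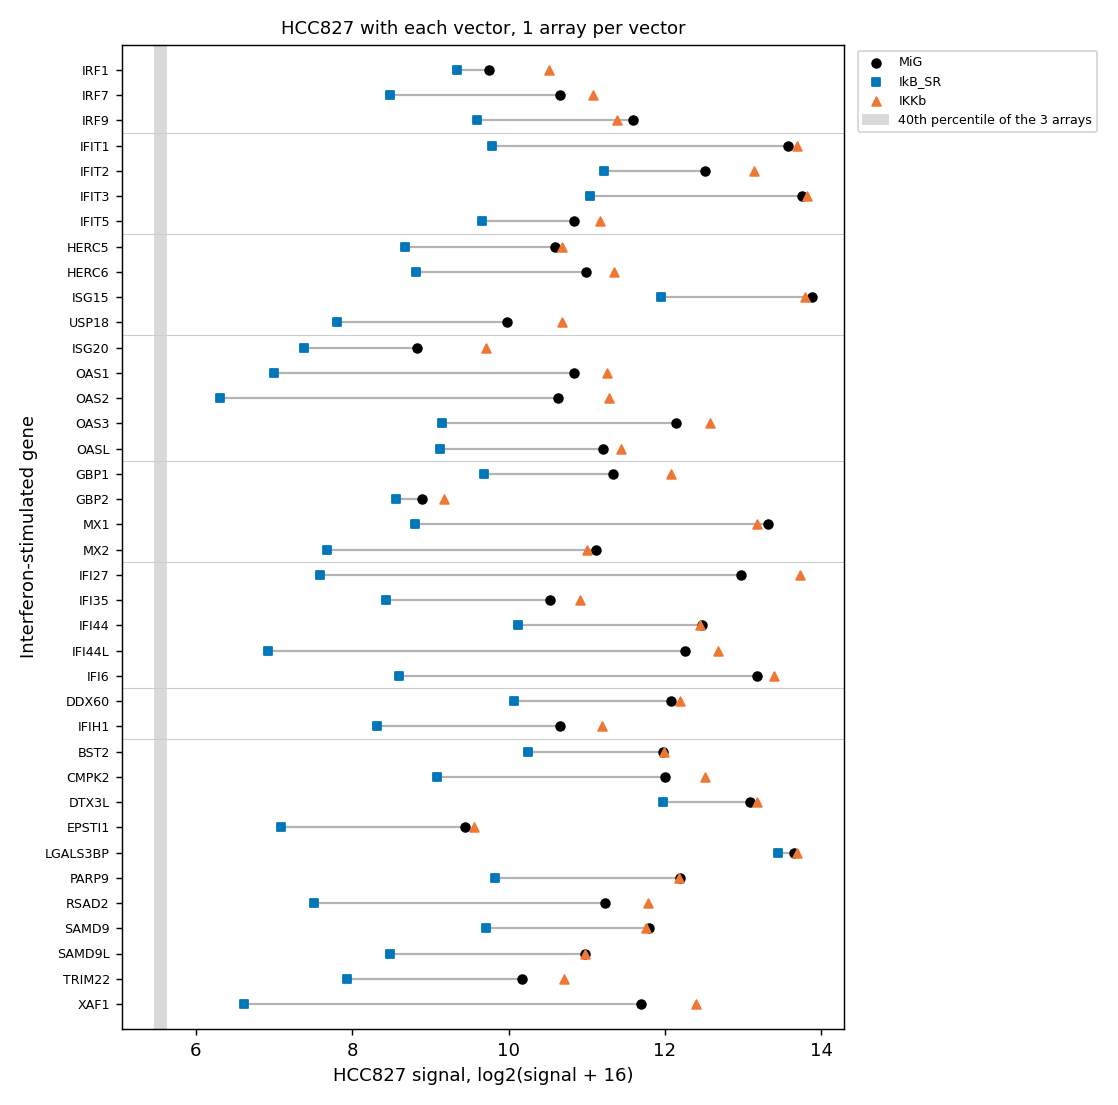
Signal of 38 interferon-stimulated genes in HCC827 with each vector, as log2 of the signal plus 16 on the x axis, 1 array per vector, with the grey line joining IkB_SR to MiG and the grey band at the 40th percentile of the 3 arrays. The IkB_SR square lies left of the MiG circle for all 38 genes, by a median of 2.21, while the IKKb triangle lies within 2-fold of MiG.

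The size of the difference was read beside gene position. The RefSeq gene table places 11 pairs of members next to each other among protein-coding genes. In HCC827 the log2 difference of IkB_SR from MiG was -5.33 for IFI44L and -2.36 for its neighbour IFI44 on chromosome 1, and -1.66 for GBP1 and -0.34 for GBP2. It was -4.52 for MX1 and -3.43 for MX2 on chromosome 21. The closest pairs were HERC6 with -2.17 beside HERC5 with -1.91 on chromosome 4, and SAMD9 with -2.09 beside SAMD9L with -2.48 on chromosome 7. These are single-array values, and the differences within a pair were not tested.

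Whether HCC827 differed from the other lines in its response to IkB_SR was tested with a limma term for 1 line against the other 4, which assumes that a single array of HCC827 varies like those of the other lines. Of 15185 genes 19 passed (0.125%), all lower in HCC827, and 15 of the 19 were members. They were IFI6, IFI44L, IFI27, OAS1, MX1, OAS2, XAF1, CMPK2, PARP9, OAS3, IRF9, RSAD2, ISG15, HERC6 and SAMD9L. The other 4 were SAMHD1, a nucleotide-cleaving restriction factor, EIF2AK2, which encodes the RNA-activated kinase PKR, LAMP3 and TRIM69. At an unadjusted p under 0.05, 33 of 38 members passed, against 3.70% of all genes. Of the 4 genes outside the members, EIF2AK2 is in the second list of interferon-stimulated genes described below. Whether SAMHD1, LAMP3 and TRIM69 respond to interferon in these cells was not tested.

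IFI6 differed by -4.61 ± 0.33 (SE; adjusted p = 0.000161) between the HCC827 response and the mean response of the other 4 lines. IFI44L differed by -5.38 ± 0.41 (adjusted p = 0.000162) and IFI27 by -5.12 ± 0.57 (adjusted p = 0.00618). OAS1 differed by -3.87 ± 0.51, MX1 by -4.52 ± 0.60 and OAS2 by -3.92 ± 0.53, each with an adjusted p of 0.0207. At the other end SAMD9L differed by -2.52 ± 0.41 (adjusted p = 0.041) and HERC6 by -1.80 ± 0.29 (adjusted p = 0.0368). Among the called members, IFI44L, RSAD2 and XAF1 were dim on every array of A549, H23 and PC9, and IFI27 on all but 1 in H23. They were kept through the arrays of HCC827 and H358. Their differences and SE therefore rest partly on arrays that could not show a fall. The ISRE core was present in the promoter window of 8 of the 14 called members with a window and in 13 of the 16 other measured members.

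The number of calls depended on the settings. It was 1 member with a pseudocount of 1, 2 without the intensity trend of the limma prior, 6 without the filter and 20 with a pseudocount of 64. It was 4 without A549, 3 without H23, 5 without PC9 and 14 without H358. Without the H358 IKKb array alone it was 18 members, the 15 among them, and 0.184% of all genes. Each of the 15 was lower in HCC827 under every setting in which it was tested.

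No such shift of the whole set was seen in the other lines. With IkB_SR against MiG, the median member difference was -0.08 in A549, -0.10 in H23, 0.06 in H358 and -0.27 in PC9. No member was at least 2-fold lower in A549 (2.29% of all genes) or H358 (1.42%), and 4 were in H23 (1.74%) and in PC9 (2.67%). Those in H23 were IFIH1, IFI27, MX2 and IFIT2, and those in PC9 were IFIT1, IFIT2, IFI35 and OAS2. With dim signals set to the 40th percentile of their array, 1 (IFIT2) was left in H23 and 3 (all but OAS2) in PC9. In H23 1 member, LGALS3BP, was at least 2-fold higher (3.24% of all genes), and at least 1.82-fold with its dim MiG signal so bounded. The same line test for A549, H358 and PC9 passed for 0 of 38 members each by limma (0, 1 and 0 at an unadjusted p under 0.05, the 1 being DTX3L in H358, against 3.33%, 7.24% and 2.88% of all genes), while 0%, 0.0132% and 0% of all genes passed. In H23 it passed for 1 member, LGALS3BP, and for 0.00659% of all genes, and LGALS3BP was also the 1 member at an unadjusted p under 0.05, against 3.79%.

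H358 is the line to set beside HCC827, since its control level was also high. With IkB_SR, IFI44L read 1514 with MiG, 1526 with IkB_SR and 1230 with IKKb in H358, and BST2 read 2150 with MiG, 2378 with IkB_SR and 1619 with IKKb. MX1 read 158 with MiG, 113 with IkB_SR and 123 with IKKb, and ISG15 read 5892 with MiG, 4772 with IkB_SR and 5196 with IKKb. The MiG and IkB_SR arrays of H358 differed by less than 2-fold for every member (1.67% of all genes were at least 2-fold higher with IkB_SR). Standard NF-kB targets gave the following values on the same arrays. RELB read 70.9 with MiG and 64.7 with IkB_SR in H358, and 309 and 110 in HCC827, while TNFAIP3 read 285 and 130 in H358, and 533 and 156 in HCC827. Other targets were higher with IkB_SR in H358. NFKB2 read 66.5 with MiG and 85.3 with IkB_SR in H358, and 230 and 76.9 in HCC827. ICAM1 read 452.5 and 520 in H358, and 461 and 194 in HCC827. Whether the extent of NF-kB blockade played a part in the difference between the lines was not tested.

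LGALS3BP in H23 went the other way. Its signals in H23 were 12.5 with MiG, 82.8 with IkB_SR and 37.1 with IKKb, and the response of H23 differed from the mean of the other lines by 1.87 on the log2 scale. The MiG signal of 12.5 lies below the 40th percentile of its array, so this is a difference at the dim end of the range.

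**Figure D3:**
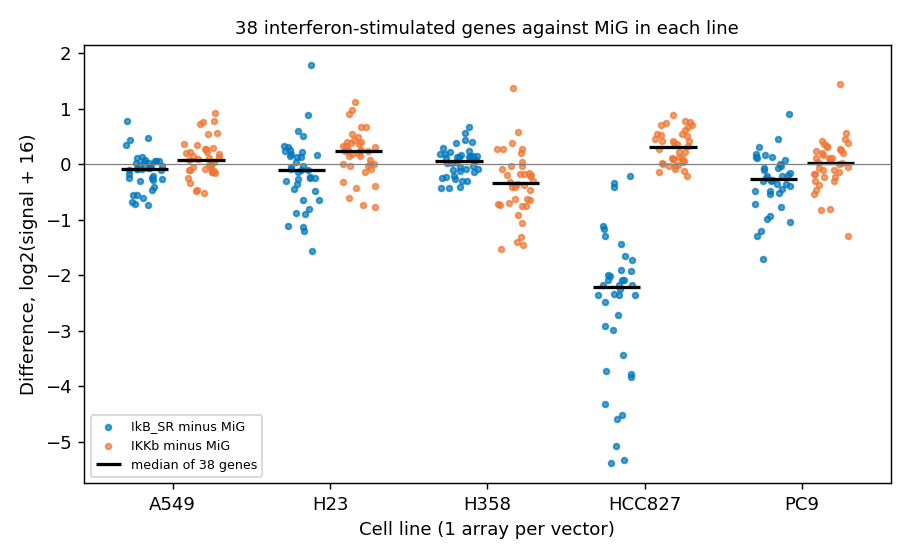
Difference of IkB_SR (blue) and IKKb (orange) from MiG for 38 interferon-stimulated genes in each of 5 lines, on the log2 scale of the signal plus 16, 1 point per gene and a black bar at the median. The HCC827 IkB_SR points lie at a median of -2.21, and the medians of the other lines with IkB_SR lie between -0.27 and 0.06.

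Across the 5 lines together, the contrast between activated and blocked NF-kB was the widest the study offers. With IKKb against IkB_SR, 2 of 38 members passed, both higher with IKKb, while 0.922% of all genes passed in either direction. These were IRF1, a transcription factor that can drive interferon-stimulated genes without STAT proteins, and GBP1, a GTPase that attacks membranes around intracellular pathogens. At an unadjusted p under 0.05, 11 of 38 members passed, all higher with IKKb, against 6.24% of all genes in that direction. Of 17 NF-kB target genes kept, 13 passed and were higher with IKKb in the same fit. Without the H358 IKKb array 19 of 38 members had an unadjusted p under 0.05 and were higher, against 5.08% of all genes, and 10 of the 17 NF-kB targets passed.

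IRF1 signals were 843 in HCC827, 1333 in H358, 352 in A549, 411 in H23 and 382 in PC9 with MiG. They were 631 in HCC827, 1522 in H358, 326 in A549, 329 in H23 and 267 in PC9 with IkB_SR, and 1454 in HCC827, 2009 in H358, 381 in A549, 582 in H23 and 517 in PC9 with IKKb. The IKKb array was above both others in every line, although the ranges of the vectors overlap because the lines differ in level. The difference of IKKb from IkB_SR was 0.70 ± 0.13 on the log2 scale (SE, 5 lines), or 1.63-fold, with limma's adjusted p = 0.0271 and a higher signal in 5 of 5 lines.

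GBP1 signals were 2581 in HCC827, 1257 in H358, 43.9 in A549, 15.3 in H23 and 141 in PC9 with MiG. They were 808 in HCC827, 1295 in H358, 44.8 in A549, 0.758 in H23 and 79.5 in PC9 with IkB_SR, and 4311 in HCC827, 1447 in H358, 96.9 in A549, 24.7 in H23 and 409.6 in PC9 with IKKb. In A549 the MiG and IkB_SR signals of GBP1 were dim or nearly so, and in H358 the 3 arrays were close together. In H23 all 3 signals were dim. With dim signals set to the 40th percentile of their array, the H23 difference of IKKb from IkB_SR was -0.06 instead of 1.28. The difference of IKKb from IkB_SR was 1.38 ± 0.27, or 2.60-fold, with limma's adjusted p = 0.0326. The signal as measured was higher in 5 of 5 lines, in H23 among dim values only.

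Both calls depended on the lines included. Neither passed without H23, HCC827 or PC9, where the adjusted p was 0.0943 to 0.164, and both passed without A549. The fit without HCC827 called 0.204% of all genes. Without H358, 5 members passed, and without its IKKb array alone 4 passed, with 0.652% of all genes: IRF1 (0.73 ± 0.14, adjusted p = 0.0362), GBP1 (1.60 ± 0.26, adjusted p = 0.0116), IFIH1 (1.82 ± 0.32, adjusted p = 0.0186) and IFIT2 (1.21 ± 0.21, adjusted p = 0.0175). With the mean of all probe sets of a gene the adjusted p was 0.137 for IRF1 and 0.122 for GBP1, and over all settings run it was 0.0185 to 1 for IRF1 and 0.0116 to 1 for GBP1.

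Against MiG the contrasts were smaller. With IKKb against MiG limma called 0 of 38 members and 0% of all genes. At an unadjusted p under 0.05 it passed 2 members, against 5.53% of all genes: IRF1 (0.48 ± 0.13) and GBP1 (0.73 ± 0.27), both higher in 5 of 5 lines with an adjusted p of 0.878. With IkB_SR against MiG limma also called 0 members and 0% of all genes, and 9 members had an unadjusted p under 0.05, all lower, against 2.18% of all genes in that direction. OAS3 had the lowest p of these with -1.09 ± 0.35 (adjusted p = 0.996), lower in 5 of 5 lines. Without the H358 IKKb array limma again called 0 members and 0% of all genes in both contrasts, with 3 members at an unadjusted p under 0.05 for IKKb against MiG (5.24% of all genes) and 11, all lower, for IkB_SR against MiG (3.06%). The contrasts share their MiG and IkB_SR arrays and are not independent of one another.

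In A549, H23 and PC9, the lines with a low level of these genes, a fit of IKKb against IkB_SR on their arrays alone called 0 of 38 members by limma and 0.230% of all genes. These lines were chosen after their MiG levels had been seen. At an unadjusted p under 0.05, 10 members were higher with IKKb, against 4.20% of all genes, and 0 were lower, against 4.48%. IKKb was above IkB_SR in each of the lines for 17 of 38 members, against 12.4% of all genes. The 10 members were IFIH1, GBP1, OAS3, IFIT2, IRF1, DTX3L, HERC5, IFIT3, IFI35 and IFI44. Line by line, IKKb was at least 2-fold above IkB_SR for 2 members in A549 (IFIH1 and MX1; 1.83% of all genes), 4 in H23 (IFIH1, IFIT2, GBP1 and DTX3L; 2.47%) and 6 in PC9 (GBP1, IFI35, OAS3, IFI44, IFIH1 and IFIT2; 2.80%). It was at least 2-fold below IkB_SR for 0 in A549 (1.73%), 1 in H23 (ISG20, 1022 with IkB_SR and 460.5 with IKKb; 2.83%) and 2 in PC9 (MX2, 46.8 and 2.70, and TRIM22, 37.2 and 7.06; 2.90%). Many of these signals were dim. With dim signals set to the 40th percentile, the higher members were 0 in A549, 2 in H23 (IFIT2 and DTX3L) and 5 in PC9 (all but IFI44), and the lower ones 0 in A549, 1 in H23 and 0 in PC9.

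IFIH1, which encodes the RNA sensor MDA5, had the largest difference, 1.65 ± 0.33 (adjusted p = 0.0948), or 3.13-fold. It read 38.3 with MiG, 19.8 with IkB_SR and 64.2 with IKKb in A549, 37.6 with MiG, 2.22 with IkB_SR and 100.3 with IKKb in H23 and 158 with MiG, 104 with IkB_SR and 240.5 with IKKb in PC9. The order of the vectors was the same in each line, with IkB_SR lowest and IKKb highest, though several of the A549 and H23 signals were dim. The IkB_SR signals of A549 and H23 were dim, so that IKKb was at least 1.51-fold higher in A549 and at least 1.91-fold in H23, and it was 2.14-fold higher in PC9.

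GBP1 differed by 1.44 ± 0.31 (adjusted p = 0.126) in these lines and OAS3 by 0.82 ± 0.18 (adjusted p = 0.134). GBP1 was dim on every H23 array. OAS3 read 1239 with MiG, 1067 with IkB_SR and 1232 with IKKb in A549, 552 with MiG, 307 with IkB_SR and 613 with IKKb in H23 and 356 with MiG, 171 with IkB_SR and 445 with IKKb in PC9, so that its IKKb and MiG signals were close and IkB_SR was the low array. IFIT2 differed by 1.10 ± 0.25 (adjusted p = 0.157), IRF1 by 0.64 ± 0.16 (adjusted p = 0.181) and DTX3L by 0.58 ± 0.15 (adjusted p = 0.212). IFIT2 read 139 with MiG, 55.6 with IkB_SR and 189 with IKKb in H23 and 332 with MiG, 125 with IkB_SR and 267 with IKKb in PC9.

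Several members with the largest difference in HCC827 had small values in the low lines. IFI44L differed by 0.00 ± 0.36, IFI6 by -0.12 ± 0.23, MX1 by 0.18 ± 0.36 and RSAD2 by 0.08 ± 0.33 between IKKb and IkB_SR. IFI44L and RSAD2 were dim on every array of A549, H23 and PC9, with IFI44L at 5.54 or less, and MX1 was above the 40th percentile on 1 of 3 arrays in A549 and in H23, so these probes could show little of a change there. IFI6 was measurable, with 212 with MiG, 233 with IkB_SR and 269.5 with IKKb in H23. Of the 9 members with a low p in these lines and a promoter window, 3 had a kB match (IFIH1, IRF1 and OAS3), against 2 of the 21 other measured members with a window.

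**Figure D4:**
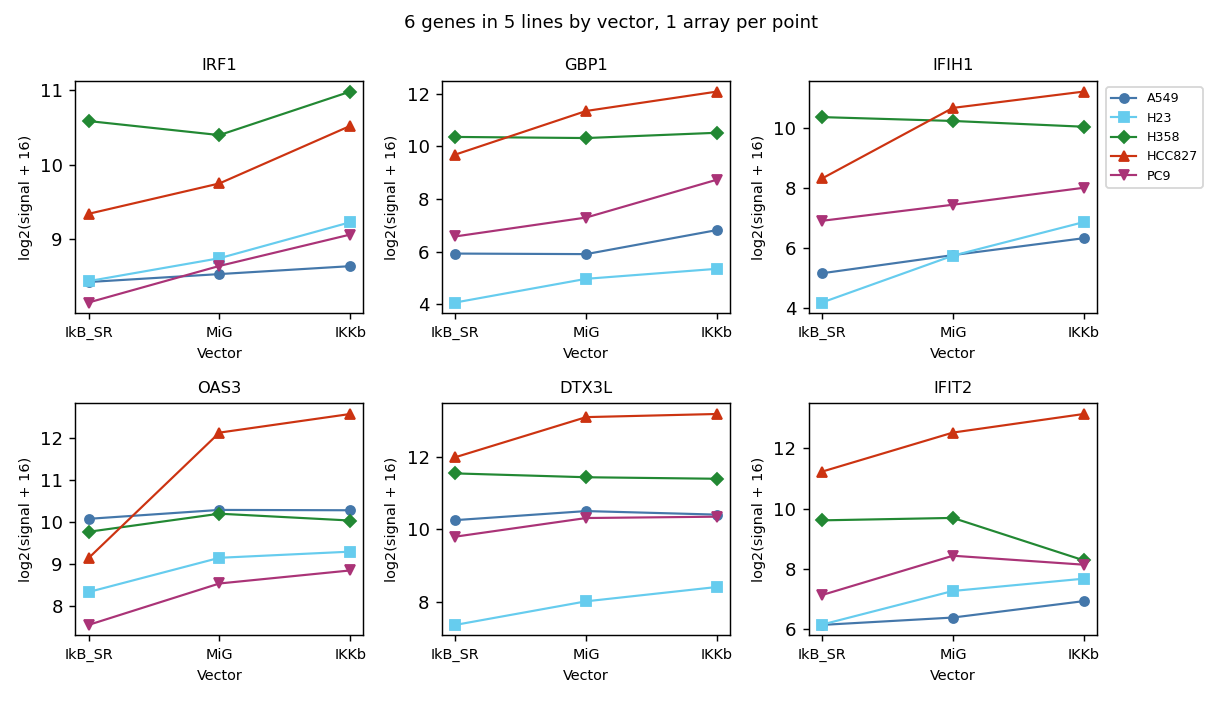
Signal of IRF1, GBP1, IFIH1, OAS3, DTX3L and IFIT2 by vector in 5 lines, as log2 of the signal plus 16 on the y axis, 1 array per point, with lines joining the arrays of a cell line. IRF1 is higher with IKKb than with IkB_SR in all 5 lines, by a mean of 0.70, and GBP1 by a mean of 1.38. GBP1 is dim on every H23 array.

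Activated IKKb in H358 went with lower signals of part of the set on the array that stood apart. Against MiG, 5 members were at least 2-fold lower (3.96% of all genes) and the median member difference was -0.34. They were DDX60, an RNA helicase (5936 with MiG and 2038 with IKKb), IFIT1 (1330 and 477), IFIT2 (812 and 296), OASL (1498 and 592) and RSAD2 (446 and 205). XAF1 alone was at least 2-fold higher, at 160 with MiG and 441 with IKKb (3.09% of all genes). No member passed the line test for H358 with IKKb by limma (2 at an unadjusted p under 0.05, IFIT2 and DDX60, against 12.5% of all genes), whereas 0.553% of all genes did. The part of the spike-in and RNA quality readings of that array in these values was not tested.

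In LLC no mouse counterpart passed the test with IKKb. Of 20 counterparts kept, limma called 0, with 0.0239% of all mouse genes called, and 1 had an unadjusted p under 0.05, against 1.87%. The median difference was -0.01. Of 12 NF-kB targets kept, 1 passed in the same fit, although their median difference was 1.32. The absence of a call in LLC therefore does not show the absence of a response. Of the 12 counterparts that were measured and not kept, Ifit1, Mx1, Mx2, Oas1a, Oas2, Oas3, Ifi44l, Ifih1, Gbp2b and Ddx60 were below the 40th percentile on every LLC array, and Ifit3 and Cmpk2 were above it on 1. Isg15 and Ifi44 had no probe set annotated to them alone.

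Gbp2, a guanylate-binding protein, was the counterpart with the low p. Its MiG signals were 5.18 and 16.2 and its IKKb signals were 94.0 and 57.4. Both MiG arrays were dim, so IKKb was at least 1.73-fold higher, and the fitted difference was 1.78 ± 0.46 on the log2 scale (limma's adjusted p = 1). With the array number as a block Gbp2 passed limma with an adjusted p of 0.0119, while 1.77% of all mouse genes passed. Gbp2 was kept by the filter through its 2 IKKb arrays alone, so it was tested only because those arrays were bright.

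Irf1 had MiG signals of 823 and 736 and IKKb signals of 1244 and 838, a difference of 0.39 ± 0.24 (adjusted p = 1). Both IKKb arrays were above both MiG arrays. Bst2 had 363 and 242 with MiG and 499 and 306 with IKKb, with overlapping groups. Oasl1 had 100.0 and 72.8 with MiG and 22.8 and 74.8 with IKKb, a difference of -0.77 ± 0.49 that came from 1 array. Nfkbia, an NF-kB target, read 5698 and 4645 with MiG and 12480 and 9722 with IKKb in the same cells. Its difference of 1.10 ± 0.23 did not pass limma either.

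**Figure D5:**
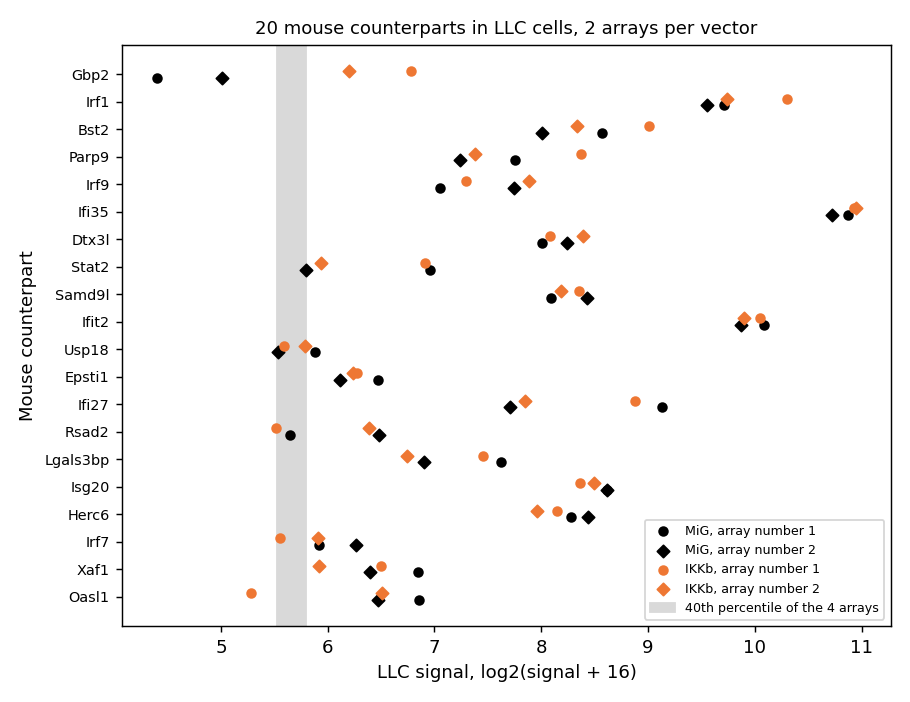
Signal of 20 mouse counterparts in LLC with MiG (black) and IKKb (orange), as log2 of the signal plus 16 on the x axis, with circles and diamonds for the array numbers 1 and 2 and the grey band at the 40th percentile of the 4 arrays. Gbp2 at the top has both IKKb symbols right of both MiG symbols, and the median difference of the 20 genes is -0.01.

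The rest of the interferon pathway was followed in a list of 36 genes, of which 33 were measured and 27 kept. With IKKb against IkB_SR, 2 passed and were higher, and 0 were lower, against 0.922% of all genes in either direction. They were IFNGR1, a chain of the interferon gamma receptor (0.62 ± 0.12, 1.54-fold, limma's adjusted p = 0.0273, higher in 5 of 5 lines), and IKBKE, a kinase that activates IRF3 and IRF7 (1.03 ± 0.22, 2.04-fold, limma's adjusted p = 0.0467, higher in 5 of 5 lines). Without the H358 IKKb array IFNGR1 passed (0.73 ± 0.10, limma's adjusted p = 0.00531) and IKBKE did not (0.90 ± 0.23, limma's adjusted p = 0.11). The median over the 27 was 0.16.

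Among the ligands, interferon beta was dim nearly everywhere. IFNB1 read 33.1 with MiG, 4.49 with IkB_SR and 128 with IKKb in HCC827 and no more than 11.1 on any array of the other lines, and it was above the 40th percentile on 1 of 15 arrays. IFNA1, IFNK and IFNG were above it on none. IFNE was above it on 7 arrays, including all 3 of HCC827 and all 3 of A549. IFNE read 111 with MiG, 74.4 with IkB_SR and 38.8 with IKKb in HCC827, and 143, 96.1 and 83.7 in A549. IFNL2 was above the percentile on 7 arrays, among them 1 of HCC827 and 0 of H358. IFNL1 was above it on 14 arrays, with 49.6 in HCC827, 61.6 in H358, 51.3 in A549, 58.2 in H23 and 40.1 in PC9 with MiG. Of the type I receptor chains, IFNAR1 read 322 in HCC827, 360 in H358, 648 in A549, 309.6 in H23 and 266 in PC9 with MiG, and HCC827 and H358 lay among the others. IFNAR2 read 269 in HCC827, 176 in H358, 709 in A549, 816 in H23 and 380.2 in PC9, and here HCC827 and H358 had the lowest signals.

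In HCC827, 2 of the 27 pathway genes were at least 2-fold lower with IkB_SR, against 2.98% of all genes kept. Both encode sensors of viral RNA. RIGI read 4513 with MiG, 648 with IkB_SR and 5832 with IKKb, and TLR3 read 259 with MiG, 81.1 with IkB_SR and 369 with IKKb. RIGI also followed the levels of the members across the lines, with MiG signals of 4513 in HCC827, 578 in H358, 141 in A549, 66.1 in H23 and 174 in PC9. The kinases JAK1 and TYK2 read 4435 with MiG, 4042 with IkB_SR and 4307 with IKKb and 601 with MiG, 531 with IkB_SR and 680.3 with IKKb in HCC827, close together with each vector. In LLC, Ikbke read 195 and 91.4 with MiG and 860 and 345 with IKKb (1.90 ± 0.49, limma's adjusted p = 1), and 0 of the 25 pathway genes kept passed there.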

How the data were processed

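The data are 15 human and 4 mouse Affymetrix arrays of total RNA. The authors deposited intensity per probe set, made with GCOS 1.4 and MAS5 per the submitters' processing notes; the mean of each array without its lowest and highest 2% was 500, a scaling that removes differences in total RNA. Of 54675 human probe sets 41097 name 1 gene, 1801 several and 11777 none, and of 45101 mouse probe sets 34958, 932 and 9211. Only those with 1 gene were used, the brightest standing for the gene. Analysis was on log2(signal + 16) with no further normalisation, and a gene was kept when above the 40th percentile of its array on at least 5 human or 2 mouse arrays. Detection calls were not used here.

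Human vectors were compared over all 15 arrays with limma 3.58.1 in R 4.3.3 (lmFit, then eBayes with a trend on intensity; tests were two-sided), with the cell line as a block because arrays of a line share their cells. LLC was fitted without a block. The response of each line was compared with the other 4 by a line-by-vector term. P-values were adjusted over all genes kept, 15185 human and 12555 mouse. The procedure was tested on simulated data. The members, gene lists and tests were chosen with earlier results of these data known. Named in full were the regulators, members past a threshold, the 8 with the highest HCC827 MiG signal (a choice of what to print, not a comparison of levels), the 4 with the largest and the 4 with the smallest HCC827 difference, and members past 2-fold in most other lines or in both LLC pairs; from the pathway list, the ligands and genes past a threshold or 2-fold lower in HCC827. JAK1, TYK2, the receptor chains and members given as contrasts were added after their values were seen. Alternatives covered the pseudocount, normalisation between arrays, the filter, the probe set rule, the limma prior, the block, the arrays in the fit and each line or array left out. Bounds with dim signals at the 40th percentile were added after the data were seen. The number of arrays limits the precision.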

Additional observations from a re-analysis of the deposited data

Results flagged for a closer look

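Of 114 groups of 5 arrays checked (38 genes with each vector), 6 held a sample farther from the others than Dixon's 95% value of 0.71 allows, and chance gives about 1 in 20. The number after each gene is the gap to the nearest sample divided by the range of the group. HCC827 was the highest line for IFIT2 with IKKb (0.782), for MX1 with MiG (0.713) and for MX1 with IKKb (0.772). PC9 was the lowest line for ISG20 with IKKb (0.779). H23 was the lowest line for LGALS3BP with MiG (0.745) and with IKKb (0.749).

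The response to IkB_SR differed between lines for 16 members by the limma line term, given here as the log2 response of the named line minus the mean of the other 4. In HCC827 it was lower for IFI44L (-5.38), IFI27 (-5.12), XAF1 (-4.72), IFI6 (-4.61), MX1 (-4.52), OAS2 (-3.92), OAS1 (-3.87), RSAD2 (-3.69), CMPK2 (-3.02), SAMD9L (-2.52), OAS3 (-2.38), PARP9 (-2.29), IRF9 (-2.12), ISG15 (-1.86) and HERC6 (-1.80). In H23 it was higher for LGALS3BP (1.87), a gene that is dim in that line with MiG. IFI44L, RSAD2 and XAF1 were dim on every array of A549, H23 and PC9, where a fall could not be measured.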

How the results depend on the processing

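In HCC827 the count of members at least 2-fold lower with IkB_SR was 34 or 35, and 33 or 34 members had their highest MiG signal there, under every normalisation, filter, pseudocount and probe set rule run. The median difference there was -2.21, and -2.04 with a pseudocount of 64. Among the differences of chosen genes that were rechecked, none changed direction under these alternatives. The bounds on dim signals were a separate check and reversed some differences within single lines. The difference of IKKb from IkB_SR for GBP1 in H23, for example, went from 1.28 to -0.06. Median centring moved the median of all genes by 0.19 in A549 and -0.15 in H23. The count of 2 members called with IKKb against IkB_SR became 1 with a pseudocount of 1 or of 64, and 0 with the mean of probe sets, without the intensity trend, when the third vector was left out of the fit, or with A549, H23 and PC9 only, the last added after the data were seen. It was 4 without the H358 IKKb array and ranged from 0 to 5 with 1 line left out. Without the cell line as a block the count was 0 (no replicate block). The count of 15 members whose IkB_SR response differed in HCC827 became 1 with a pseudocount of 1, 6 without the filter, 9 with the mean of probe sets and 2 without the intensity trend, and ranged from 3 to 14 with 1 line left out. Of the 15 genes, 13 were called again under quantile normalisation and 13 under median centring. The causes of these shifts were not tested. The comparisons of IKKb or IkB_SR with MiG called 0 members under every alternative.

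The labels do not say what the LLC numbers stand for. The dap spike-in read 2480 with MiG and 2186 with IKKb on the arrays numbered 1, and 36.5 and 0.551 on those numbered 2. The deviations of same-numbered LLC arrays correlated at 0.53 across 12555 genes. With the replicate block 1 member (Gbp2, kept through its IKKb arrays alone) and 222 genes were called, against 0 and 3 without it. Leaving out 1 LLC array gave 0 called members each time. Signals of IFI44L, RSAD2, XAF1 and BST2 in A549, H23 and PC9 and of 10 counterparts in LLC were too dim for a change to be measured.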

Other observations

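A second list of 29 interferon-stimulated genes outside the 39, of which 26 were kept, was read in the same way. In HCC827, 16 of the 26 were at least 2-fold lower with IkB_SR (2.98% of all genes kept) and 0 were at least 2-fold higher (2.29%). The median difference was -1.10 on the log2 scale. The 6 with the largest differences were IFITM1, which blocks the entry of enveloped viruses (11100 with MiG, 1522 with IkB_SR and 13380 with IKKb), PARP14 (1444 with MiG, 306 with IkB_SR and 1328 with IKKb), RTP4 (337 with MiG, 78.6 with IkB_SR and 621 with IKKb), the DNA sensor IFI16 (9121 with MiG, 3014 with IkB_SR and 8369 with IKKb), PLSCR1 (16280 with MiG, 6185 with IkB_SR and 14170 with IKKb) and UBE2L6, the conjugating enzyme for ISG15 (5342 with MiG, 2037 with IkB_SR and 5719 with IKKb). Across the 5 lines limma called 0 of the 26 in any of the 3 vector contrasts, and 1, EIF2AK2, differed in the response of HCC827 to IkB_SR.

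The chemokines CXCL10 and CXCL11, which attract T cells and are targets of both interferon and NF-kB, were picked out after their values were seen. CXCL10 read 113 with MiG, 38.4 with IkB_SR and 524 with IKKb in HCC827, 47 with MiG, 42.1 with IkB_SR and 339.9 with IKKb in H358 and 31.3 with MiG, 41.5 with IkB_SR and 106 with IKKb in PC9. In the other lines IKKb was not above IkB_SR, with 42.6 with MiG, 41.3 with IkB_SR and 12.3 with IKKb in A549 and 5.23 with MiG, 62.2 with IkB_SR and 56.3 with IKKb in H23, and over the 5 lines CXCL10 did not pass for IKKb against IkB_SR (1.18 ± 0.52, limma's adjusted p = 0.332, higher in 3 of 5 lines; without the H358 IKKb array 0.85 ± 0.53, limma's adjusted p = 0.598). CXCL11 read 98.7 with MiG, 19.3 with IkB_SR and 1388 with IKKb in HCC827 and 21.7 with MiG, 1.35 with IkB_SR and 972 with IKKb in H358. CXCL11 read 6.17 with MiG, 12 with IkB_SR and 6.59 with IKKb in A549, 1.4 with MiG, 1.12 with IkB_SR and 9.17 with IKKb in H23 and 2.15 with MiG, 5.71 with IkB_SR and 44.8 with IKKb in PC9, and it was not kept by the filter. As measured, IKKb gave the highest signal of either gene in HCC827, H358 and PC9, more than 2-fold above MiG in each. The H358 IKKb signals come from the array that stood apart. The MiG signals of both genes in PC9, and of CXCL11 in H358, were dim. IKKb was also above MiG in HCC827 for 31 of 38 members, but 0 of them reached 2-fold. In LLC, Cxcl10 read 8.56 and 3.88 with MiG and 103 and 54.9 with IKKb (2.05 ± 0.47, limma's adjusted p = 1), and both MiG arrays were dim. Cxcl11 read 42.5 and 42.4 with MiG and 9.06 and 8.81 with IKKb (-1.23 ± 0.43), and it did not pass. Its IKKb signals were dim, and its MiG signals lay little above the 40th percentile of their arrays (32.3 and 39.6).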
